A study of Mus musculus with 6 samples.

Results

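NF-YA binding was examined at 56 genes of DNA replication and DNA repair in cultures of mouse muscle stem cells (MuSCs), from which new muscle fibres are formed after injury. The genes were taken from a given list of names, which was chosen with earlier results of these data known. Membership in the list used no measured level. A gene counted as bound when a peak of the deposited peak set was annotated to it. The authors annotated peaks to the nearest gene within a fixed distance of its start. Peaks were annotated to 24 of the 56 genes. One of these, *Mre11a*, appears in the peak set under the newer symbol Mre11 and was matched by its gene identifier, so that 23 genes matched by symbol. These 24 genes carried 31 of 9056 peaks.

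The cells were wild type, of the C57BL/6 mouse strain, and in an activated and proliferating state in culture. CUT&RUN was used, in which an antibody directs a nuclease to its target in permeabilised cells and the released DNA is sequenced. The series had 6 samples, 3 made with an antibody against NF-YA and 3 with mouse IgG as control. The IgG libraries were not analysed here, and all levels are those of the 3 NF-YA libraries. The study describes them as biological replicates, but the sources used here do not say whether they came from separate animals or cultures, so the spread between them may be in part technical.

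Before a cell divides, each origin of replication is licensed by loading of the MCM helicase, which origin recognition complex, Cdc6 and Cdt1 place on DNA. Licensed origins are then fired when Cdc45 and the GINS complex join the helicase, and polymerases, a sliding clamp and a supply of deoxynucleotides carry synthesis on. Repair enzymes and checkpoint kinases act on breaks, mismatches and stalled forks. NF-Y is a trimeric transcription factor. Its subunit NF-YA contacts the CCAAT box, and CCAAT boxes are common in promoters of cell cycle genes, often together with sites for E2F factors. MuSCs are quiescent in resting muscle and take up DNA replication when they are activated.

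To show what lies under the peaks, the stretch upstream of the start is given for the members with the highest promoter peaks whose upstream stretch outside annotated exons holds a CCAAT box within the peak. The sequences are from RefSeq on the GRCm38.p6 assembly (mm10), in the direction of the gene, with CCAAT on the gene's strand or its reverse complement ATTGG in capitals. Positions in these stretches are counted from the RefSeq start.
Chek2, chr5:110839783-110839978, plus strand: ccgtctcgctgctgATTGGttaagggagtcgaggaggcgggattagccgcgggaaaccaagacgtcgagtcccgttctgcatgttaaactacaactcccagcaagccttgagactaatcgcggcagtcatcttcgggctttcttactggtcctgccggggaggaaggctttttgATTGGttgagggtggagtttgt
Rpa2, chr4:132768160-132768331, plus strand: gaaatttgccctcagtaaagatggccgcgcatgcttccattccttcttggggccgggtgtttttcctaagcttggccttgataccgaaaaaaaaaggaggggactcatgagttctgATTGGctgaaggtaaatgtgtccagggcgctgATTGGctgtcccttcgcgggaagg
Mcm10, chr2:5012792-5012991, minus strand: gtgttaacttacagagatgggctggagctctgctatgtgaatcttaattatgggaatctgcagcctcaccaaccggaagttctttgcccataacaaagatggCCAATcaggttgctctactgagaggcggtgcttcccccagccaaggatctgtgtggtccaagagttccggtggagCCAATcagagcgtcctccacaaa
Mcm3, chr1:20820313-20820512, minus strand: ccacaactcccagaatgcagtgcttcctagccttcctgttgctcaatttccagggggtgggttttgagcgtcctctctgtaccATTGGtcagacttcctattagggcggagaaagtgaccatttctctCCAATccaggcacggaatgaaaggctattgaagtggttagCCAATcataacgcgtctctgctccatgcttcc
Fanca, chr8:123318577-123318776, minus strand: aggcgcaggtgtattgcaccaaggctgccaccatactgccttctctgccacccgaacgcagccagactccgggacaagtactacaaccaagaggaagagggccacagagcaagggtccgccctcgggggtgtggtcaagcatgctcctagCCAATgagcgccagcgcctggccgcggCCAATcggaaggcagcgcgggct
Mcm5, chr8:75109309-75109508, plus strand: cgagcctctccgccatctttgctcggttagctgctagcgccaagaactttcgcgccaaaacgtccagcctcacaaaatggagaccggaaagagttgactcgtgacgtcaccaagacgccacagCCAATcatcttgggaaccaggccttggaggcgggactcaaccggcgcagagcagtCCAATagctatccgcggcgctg
Mcm6, chr1:128359706-128359905, minus strand: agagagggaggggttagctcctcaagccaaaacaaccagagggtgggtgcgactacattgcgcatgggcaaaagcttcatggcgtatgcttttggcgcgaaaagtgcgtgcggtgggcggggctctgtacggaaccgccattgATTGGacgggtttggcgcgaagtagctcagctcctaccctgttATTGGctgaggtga
Pola1, chrX:93632156-93632355, minus strand: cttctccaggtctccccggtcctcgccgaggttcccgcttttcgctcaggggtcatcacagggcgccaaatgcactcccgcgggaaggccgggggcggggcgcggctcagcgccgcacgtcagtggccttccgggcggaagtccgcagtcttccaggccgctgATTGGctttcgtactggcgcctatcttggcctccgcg

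The *Mcm10*, *Fanca* and *Mcm5* stretches each held 2 CCAAT boxes, all on the gene's strand. In *Chek2*, *Rpa2* and *Mcm6*, both of the 2 boxes were on the opposite strand. *Mcm3* had 3 boxes, 2 on the gene's strand and 1 opposite, with middles at -115, -70 and -30 bp. Within these upstream stretches, the box nearest to the start had its middle at -24 bp in *Chek2* and -21 bp in *Mcm10* and *Fanca*. It was at -20 bp in *Mcm5* and -12 bp in *Mcm6*. The single box of *Pola1*, which had a far lower peak, was at -35 bp on the opposite strand. In lower case, 1 E2F motif each is found in the *Chek2*, *Mcm5* and *Pola1* stretches, and 2 are found in that of *Mcm6*.

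Peaks were annotated to 42.9% of the 56 genes (24 genes, 95% Wilson interval 30.8 to 55.9%). Among all 21938 protein-coding genes the share was 19.0%. A promoter peak, meaning a peak whose centre lay within 1000 bp of the start of its annotated gene, was held by 22 genes, or 39.3% (27.6 to 52.4%), compared with 14.8% of all protein-coding genes. Each peak was assigned to 1 gene only, although some of these genes share a promoter region with a neighbour. Regardless of assignment, 28 of the 56 genes (50%, 37.3 to 62.7%) had a peak centre within 1000 bp of an annotated transcript start, against 19.1% of all protein-coding genes. The genes were chosen with results of these data known, so these shares are descriptions without a test. Reads that fell elsewhere in the genome were not used here, and a gene without a peak is not thereby shown to be unbound.

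The 56 genes were divided by role into 8 groups. Origin licensing had the most promoter peaks, at 10 of 13 genes, with *Mcm10* counted here although it helps to activate the helicase. The polymerases and primase had 3 of 8, and the clamp, clamp loader, single-strand binding and maturation factors had 2 of 11. Promoter peaks were annotated to 1 of 5 firing and helicase assembly genes, 1 of 5 nucleotide supply genes, 1 of 4 checkpoint kinases, 2 of 7 genes of double-strand break and crosslink repair, and 2 of 3 genes of single-strand and mismatch repair. A further 6 genes had a peak within 1000 bp that was assigned to a neighbour, 1 gene, *Xrcc5*, had a peak outside its promoter only, and 27 genes had no peak of any of these kinds. Of the 25 promoter peaks annotated to the 22 genes, 7 were also within 1000 bp of the start of another protein-coding gene, namely those of *Chek2*, *Mcm4*, *Mcm7*, *Mre11a*, *Orc6*, *Pole* and *Xrcc1*. The same share was not counted for other promoter peaks, so this is not shown to be particular to these genes.

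**Figure D1:**
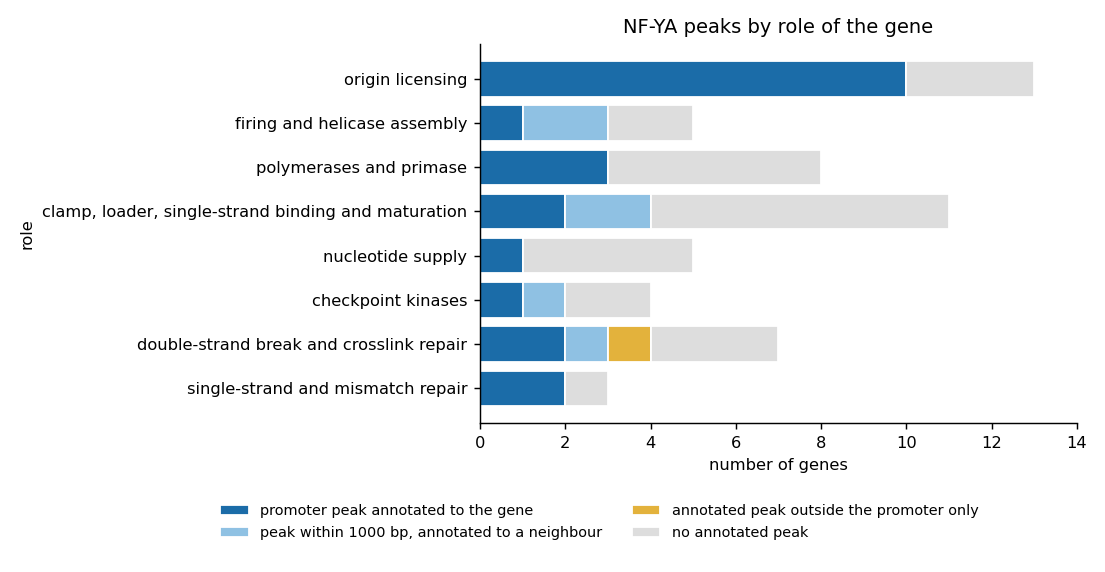
Number of genes in each role group (horizontal axis) by the kind of NF-YA peak found, with bars stacked from promoter peaks annotated to the gene to no peak of these kinds (labelled no annotated peak). Origin licensing shows 10 of 13 genes with their own promoter peak. Of the 11 clamp, loader, single-strand binding and maturation genes, 7 had neither a peak of their own nor a neighbour's peak within 1000 bp.

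The values are reads per peak divided by a library size factor, called normalised reads. About 477083, 226909 and 334618 reads lay in peaks in replicates 1, 2 and 3, so that 3 reads, used as a floor, correspond to 2.01, 4.43 and 3.06 normalised reads. The study lists a shorter sequencing read length for replicate 1 than for replicates 2 and 3. Whether this adds to differences between the libraries was not tested. Levels of different genes are of whole peaks unless given per kb of peak. All 25 promoter peaks of the 22 genes were above this floor in every library, as were 89.7% of the 3721 other promoter peaks. Over all peaks the median was 15.0 normalised reads. Of 7 marker genes of muscle stem cells, 3 had a peak (*Myod1*, *Cdh15* and *Des*), as did 0 of 5 markers of other cells, but a peak of NF-YA is not a measure of expression and does not check the cell type.

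Among the licensing genes, the origin recognition complex is represented by *Orc1*, *Orc2* and *Orc6*. The *Orc6* peak had 83, 177 and 144 normalised reads in replicates 1, 2 and 3 (135 ± 47.7, mean ± SD, n = 3 here and below). Replicate 1 was well below the other libraries at this peak, which had the widest SD of these genes. The *Orc2* peak reached 76, 83 and 63 (74.0 ± 10.1), below *Orc6* in each replicate. Per kb of peak, replicate 1 had the reverse order, with 171 for *Orc6* and 213 for *Orc2*. *Orc1*, the largest subunit with ATPase activity, had no peak, and the nearest peak centre was 185582 bp away.

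The loading factor *Cdc6* had 76, 69 and 67 normalised reads (70.7 ± 4.73), with its centre 34 bp upstream of the start. *Gmnn* encodes geminin, the inhibitor of Cdt1, and had a pair of promoter peaks. The higher one lay in an intron, 411 bp downstream of the start, with 45, 34 and 61 normalised reads (46.7 ± 13.6). The other covered the start itself and was lower in every library, at 17, 15 and 11 (14.3 ± 3.06). *Cdt1*, which brings the helicase to origins, had no peak within 23379 bp.

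The MCM2 to MCM7 proteins form the replicative helicase, and 5 of these 6 genes had a promoter peak annotated to them. *Mcm3* had 142, 140 and 131 normalised reads (138 ± 5.86), and *Mcm5* had 120, 108 and 122 (117 ± 7.57). In each library, these 2 genes were above the peaks annotated to the remaining helicase genes. *Mcm4* had 75, 71 and 86 (77.3 ± 7.77), and *Mcm6* had 40, 28 and 31 (33.0 ± 6.24), so that the libraries of *Mcm5*, *Mcm4* and *Mcm6* did not overlap. The 4 genes kept this order per kb of peak, with means of 397, 321, 233 and 106. The *Mcm4* peak was also within 1000 bp of the start of *Prkdc*, which encodes the catalytic subunit of DNA-dependent protein kinase, and this peak cannot be given to one of the pair. *Mcm10*, which helps to activate the helicase, had 125, 149 and 144 (139 ± 12.7).

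*Mcm7* shows how far the assignment of peaks to genes matters. The only peak annotated to it was weak, with 9, 7 and 5 normalised reads (7.0 ± 2.0), and lay at -955 bp from the gene's outermost start. A higher peak at chr5:138171012-138171485 had 135, 87 and 121 (114 ± 24.7) and its centre was 8 bp from the start of an *Mcm7* transcript. A second at chr5:138171781-138172111 had 96, 108 and 107 (104 ± 6.66) and lay 128 bp from an *Mcm7* transcript start. Both were assigned to *Ap4m1*, the gene on the opposite strand, whose start is 420 bp from that of *Mcm7*. Per kb, these 2 peaks had 241 ± 52.1 and 313 ± 20.1 normalised reads, compared with 48.6 ± 13.9 for the annotated peak. *Mcm2* had no annotated peak, and the nearest peak centre was 3444 bp away, at a peak of 28.0 normalised reads annotated to *Tpra1*.

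The upstream stretch of *Mcm7*, from the RefSeq start at the first of these peaks, is shown with that of *Rpa3*, whose peak was also assigned to a neighbour. These 2 were chosen for printing after their values were seen.
Mcm7, chr5:138171267-138171466, minus strand: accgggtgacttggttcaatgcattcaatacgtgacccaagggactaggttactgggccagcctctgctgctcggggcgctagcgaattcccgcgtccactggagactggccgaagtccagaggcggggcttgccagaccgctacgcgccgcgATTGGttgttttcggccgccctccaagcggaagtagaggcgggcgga
Rpa3, chr6:8259174-8259287, minus strand: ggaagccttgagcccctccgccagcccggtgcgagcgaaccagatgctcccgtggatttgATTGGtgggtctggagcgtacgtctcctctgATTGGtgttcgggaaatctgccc

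The *Mcm7* stretch had 1 box at -45 bp, and the *Rpa3* stretch had 2 boxes at -84 and -53 bp, all on the opposite strand. Across the 8 peaks near members that were assigned to neighbours, every peak held at least 1 CCAAT somewhere. Among the 3721 promoter peaks not annotated to the 56 genes, 78.9% did. Within 50 bp of the centre, the first *Mcm7* peak and the *Cdc45*, *Atm* and *Brca1* peaks held none. Of the 3721 peaks, 64.5% held CCAAT there. The *Cdc45* and *Brca1* peaks, 443 and 1105 bp long, each held 6.

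Of the genes that fire origins, *Gins2*, a subunit of the GINS complex, had one of the highest peaks, with 239, 177 and 180 normalised reads (199 ± 35.0). Replicate 1 was above the others, and no licensing gene exceeded it in any library, *Orc6* having the same 177 in replicate 2. Per kb of peak its 357 ± 62.9 was below *Mcm3*, at 397 ± 16.9. *Cdc45*, the helicase partner of GINS, had a peak 170 bp from its transcript start with 92, 89 and 109 (96.7 ± 10.8), assigned to *Ufd1*, whose start is 208 bp from that of *Cdc45*. *Gins1* had a peak of 30, 35 and 45 (36.7 ± 7.64) in a 5' UTR, 4310 bp downstream of the gene's outermost start but 93 bp from the start of another *Gins1* transcript. It is not counted among the promoter peaks, which were taken from the outermost start. Another peak, 682 bp from its start and assigned to *Abhd12*, had 56, 56 and 69 (60.3 ± 7.51) and was the higher of these in each library. *Gins3* and *Cdc7*, the latter a kinase that triggers firing, had no peak within 69398 and 513768 bp.

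Of the 8 listed polymerase and primase genes, the 3 with a promoter peak had low ones. *Pola1*, the catalytic subunit of polymerase alpha, had 15, 10 and 8 normalised reads (11.0 ± 3.61), and *Pole*, that of the leading-strand polymerase, had 11, 10 and 11 (10.7 ± 0.577). *Pold1*, the catalytic subunit of polymerase delta, had 8, 6 and 7 (7.0 ± 1.00). All 9 values were below the median of other promoter peaks, which was 29 normalised reads in the mean of the libraries. *Pola2*, *Pold3*, *Pole2*, *Prim1* and *Prim2*, which encode accessory and primase subunits, had no annotated peak. A peak of 10.3 normalised reads with no gene annotation was 1290 bp from a start of *Pola2*.

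*Pcna*, the sliding clamp, had 2 promoter peaks. The higher, in an intron 595 bp downstream of the start, had 76, 93 and 97 normalised reads (88.7 ± 11.2), and the one over the 5' UTR, 97 bp downstream, had 58, 72 and 81 (70.3 ± 11.6). In both peaks replicate 1 was lowest and replicate 3 highest. The 3 subunits of replication protein A, which coats single-stranded DNA, all had a peak at their start. *Rpa2* had 167, 151 and 147 (155 ± 10.6) under its own name. The *Rpa1* peak with 85, 78 and 62 (75 ± 11.8) was assigned to *Smyd4*, and the *Rpa3* peak with 88, 90 and 84 (87.3 ± 3.06) to *Umad1*. *Rpa2* was the highest of the 3 in each library, and it also was per kb of peak, with 351 ± 24 against 202 ± 31.7 for *Rpa1* and 278 ± 9.73 for *Rpa3*. The starts of *Rpa1* and *Rpa3* lay 109 and 70 bp from these peak centres. In contrast, none of the 5 clamp loader genes *Rfc1*, *Rfc2*, *Rfc3*, *Rfc4* and *Rfc5* had an annotated peak, and the same held for *Fen1*, the flap endonuclease, and *Lig1*, the ligase of Okazaki fragments.

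For the supply of deoxynucleotides, *Rrm2*, the small subunit of ribonucleotide reductase, had 5 peaks, the most of any of these genes. The promoter peaks at -622 and -55 bp from the start had 24, 22 and 31 (25.7 ± 4.73) and 33, 16 and 25 normalised reads (24.7 ± 8.5), so that their order changed between libraries. Farther upstream, peaks at -1310 and -4993 bp had means of 21.7 ± 2.52 and 16.7 ± 4.04. A peak in a coding exon had 5, 1 and 2 and was at or below 3 reads in replicates 2 and 3. The large subunit gene *Rrm1* had no peak, nor had *Tk1* (thymidine kinase), *Tyms* (thymidylate synthase) or *Dut* (dUTPase).

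Of the checkpoint kinases, *Chek2* had the highest promoter peak annotated to any of the 56 genes, with 265, 276 and 263 normalised reads (268 ± 7.0). The libraries differed little, with a coefficient of variation of 2.61%, and each was above every library of the other promoter peaks annotated to these genes. The peak was also within 1000 bp of the start of *Hscb*, an iron-sulphur cluster co-chaperone gene. *Atm*, the kinase that responds to double-strand breaks, had a weak peak of 11, 7 and 11 (9.67 ± 2.31) 198 bp from its start, assigned to *Npat*. *Atr* and *Chek1*, the kinases of the replication stress response, had no peak within 259018 and 40710 bp.

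In double-strand break and crosslink repair, *Fanca*, a subunit of the Fanconi anaemia core complex, had 102, 118 and 148 normalised reads (123 ± 23.4), and a second peak at -1280 bp had 12, 18 and 21 (17.0 ± 4.58). Both peaks were lowest in replicate 1 and highest in replicate 3. *Mre11a*, the nuclease that trims broken ends, had 48, 49 and 37 (44.7 ± 6.66) at a peak also near the start of *Ankrd49*. *Xrcc5*, which encodes a Ku subunit, had only an intron peak 2544 bp downstream, with 9, 3 and 9 (7.0 ± 3.46), at or below 3 reads in replicate 2. The peak with the most reads near any of the 56 genes lay 478 bp from the start of *Brca1* at chr11:101551881-101552985, with 344, 414 and 429 (396 ± 45.4), rank 50 of all 9056 peaks. It was assigned to *Nbr1*, the autophagy receptor gene on the opposite strand, which starts 194 bp from *Brca1*. This peak was 1105 bp long, and per kb it had 358 ± 41.1 normalised reads, below *Chek2* at 527 ± 13.8. *Brca2*, *Rad50* and *Fancd2* had no annotated peak.

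In single-strand and mismatch repair, the scaffold gene *Xrcc1* had 120, 103 and 93 normalised reads (105 ± 13.7) at an intron peak 683 bp downstream of the gene's outermost start. The peak centre was 178 bp from the start of another *Xrcc1* transcript. *Msh6*, a subunit of the mismatch sensor, had 8, 9 and 7 (8.0 ± 1.00). It was lower than *Xrcc1* in each library and also per kb of peak, with 58.8 ± 7.35 against 247 ± 32. *Parp1*, which senses strand breaks, had no peak within 214605 bp. Of the 27 genes without a peak, *Pola2* and *Mcm2* were the 2 with the nearest peak centres.

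**Figure D2:**
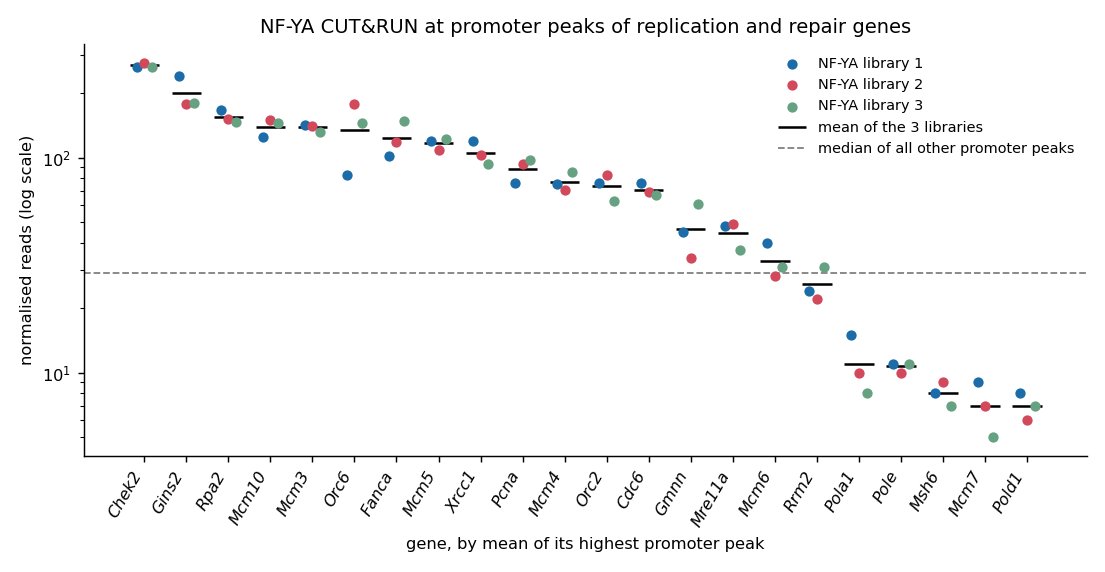
Normalised reads on a log scale (vertical axis) in each of the 3 NF-YA libraries (points) at the highest promoter peak annotated to each of 22 genes (horizontal axis), with the mean as a bar and the median of all other promoter peaks (29) as a dashed line. Values run from *Chek2* at a mean of 268 to *Mcm7* and *Pold1* at 7.0, and the *Orc6* libraries are the most widely spread in absolute terms.

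Ordered by the mean of their highest promoter peak, the 22 genes spanned 38.3-fold, with a median of 75.7 normalised reads. Neighbours in this order were called resolved if their means differed by at least the larger of their SDs. Of 21 neighbouring pairs, 10 were resolved and 11 were not. Only neighbours were compared. The steps from *Chek2* to *Gins2*, *Gins2* to *Rpa2* and *Rpa2* to *Mcm10* were resolved, but the *Orc6* libraries spread so widely that *Orc6* was above *Rpa2* in replicate 2. *Mcm10*, *Mcm3*, *Orc6*, *Fanca*, *Mcm5* and *Xrcc1* followed without a resolved step between them. The peaks differ in length, from 136 to 556 bp, and higher peaks were longer. Per kb of peak, the span narrowed to 11.3-fold and 7 pairs were resolved. *Chek2* remained highest, at 527 ± 13.8 normalised reads per kb, followed by *Mcm3* at 397 ± 16.9, *Gins2* at 357 ± 62.9, *Mcm10* at 352 ± 32 and *Rpa2* at 351 ± 24, and *Pola1* was lowest at 46.4 ± 15.2.

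The promoter peaks of these genes were then set against the 3721 other promoter peaks. Their medians were 75 against 29 normalised reads in replicate 1, 71.0 against 28.0 in replicate 2 and 67.0 against 30 in replicate 3. On the log2 scale the ratio was 1.37, 1.34 and 1.16, with a mean of 1.29 ± 0.11 (SD, n = 3), higher in 3 of 3 libraries. This is a description without a test. Of the 25 peaks, 17 were above the median of the other promoter peaks. They were also longer, with a median of 332 bp against 250 bp, and per kb of peak the log2 ratio was 0.70. The spread between libraries, as the median coefficient of variation, was 14.3% against 19.7%, with a range from 2.61 to 35.4% among the 25 peaks.

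**Figure D3:**
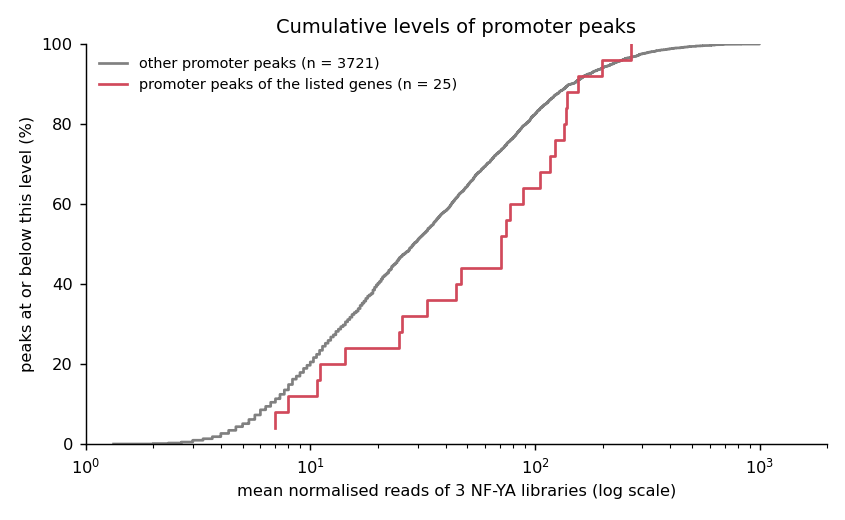
Share of promoter peaks (vertical axis, %) at or below each mean level (horizontal axis, normalised reads on a log scale) for the 25 promoter peaks of the listed genes and the 3721 others. The curve of the listed genes lies to the right through the middle of the range, with medians of 70.7 and 29, and meets the other curve at the top, where other genes have higher peaks than *Chek2*.

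CCAAT was searched on both strands in the mm10 sequence. Within 50 bp of the peak centre it was found in 19 of the 25 promoter peaks (76.0%, Wilson interval 56.6 to 88.5%) and in 64.5% of other promoter peaks, a share within that interval. Anywhere under the peak it was found in 23 of 25 (92.0%, 75 to 97.8%) against 78.9%. The *Msh6* and *Pold1* peaks had no CCAAT. These were among the lowest and, at 136 bp, the shortest. At positions 1000 bp to either side of the centres, windows of the same width held CCAAT in 4 of 25 cases (16%) on each side. Of the 6 peaks of these genes outside promoters, 2 held CCAAT anywhere under the peak and 1 within 50 bp of the centre. The share over all peaks outside promoters was not counted.

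Peaks with 2 or more CCAAT boxes were 16 of 25 (64.0%, 44.5 to 79.8%), against 42.9% of other promoter peaks. All 9 genes whose highest promoter peak had a mean of at least 100 normalised reads held 2 or 3 boxes, as did 6 of 8 genes between 20 and 100 and 1 of 5 below 20. The peaks of these 3 sets were 347 to 556 bp, 300 to 405 bp and 136 to 237 bp long, so longer peaks had more sequence in which to hold a box. The part of length in the number of boxes was not tested.

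The 25 peaks held 45 boxes, with a median position of -36 bp from the start of the gene as annotated in the peak set. Of these, 31 (68.9%) were upstream of the start, compared with 77.0% of boxes under other promoter peaks. On the gene's strand were 17 boxes (37.8%), compared with 51.1%. *Cdc6*, *Chek2*, *Gmnn*, *Mcm4*, *Mcm6*, *Mcm7*, *Orc2*, *Pcna*, *Pola1*, *Pole* and *Rpa2* had boxes on the opposite strand only, whereas those of *Fanca*, *Gins2*, *Mcm5*, *Mcm10* and *Xrcc1* were all on the gene's strand. Neighbouring boxes on the same strand were 30 to 32 bp apart in 3 of 19 pairs (15.8%, against 12.7%), at *Pcna* and *Xrcc1* with 30 bp and *Rpa2* with 32 bp. In the printed *Rpa2* stretch this pair is seen near its 3' end.

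E2F factors bind a GC-rich element, searched here as TTTCCCGC or TTTGGCGC on both strands and counted regardless of overlap with other motifs. It was found under 11 of 25 promoter peaks (44.0%, 26.7 to 62.9%), against 3.52% of other promoter peaks. The 11 peaks belonged to *Cdc6*, *Chek2*, *Gins2*, *Gmnn*, *Mcm3*, *Mcm5*, *Mcm6*, *Pcna*, *Pola1*, *Pole* and *Rpa2*, with 2 matches each in *Mcm3*, *Mcm5*, *Mcm6* and *Pcna*. These 15 matches lay between -307 and 717 bp from the start and a median of 71.0 bp from the nearest CCAAT box. E2F matches were present in peaks of all levels, at 5 of the 9 highest genes, 4 of the 8 intermediate and 2 of the 5 lowest. Other elements were not more frequent than in other promoter peaks. The cell cycle homology region (CHR, TTTGAA or TTCGAA) was found in 8.0% against 12.3%, the GC box GGGCGG in 64.0% against 65.7% and the E-box CACGTG in 4.00% against 10.4%. Such matches describe the letters and are no measure of binding.

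**Figure D4:**
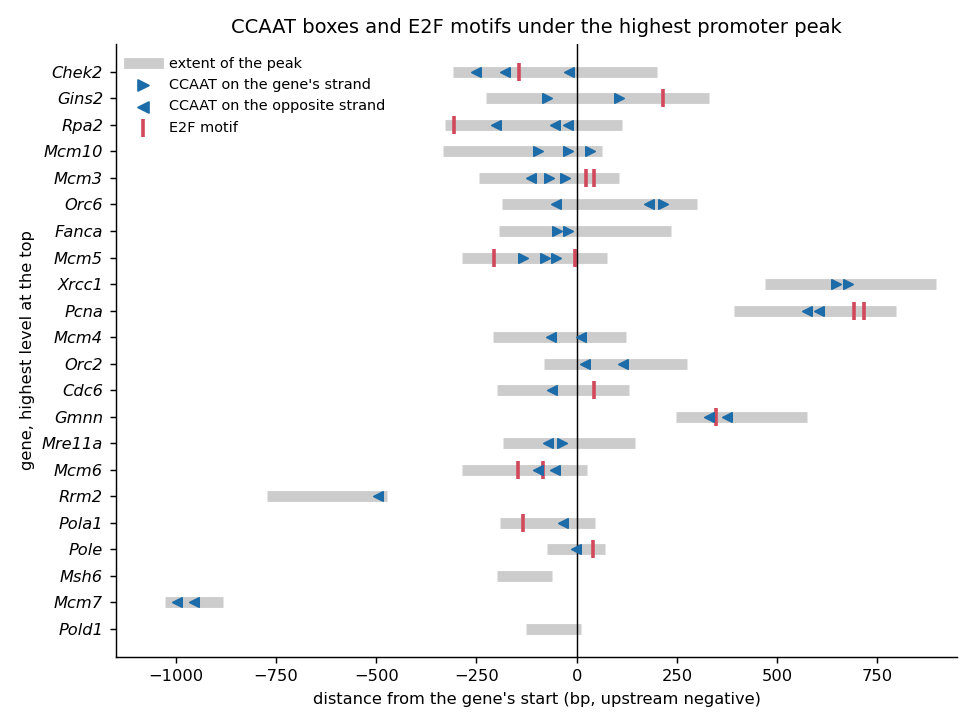
Position of CCAAT boxes (triangles pointing right on the gene's strand, left on the opposite strand) and E2F motifs (vertical ticks) relative to the start of the gene (horizontal axis, bp) under the highest promoter peak of 22 genes, with the grey bar as the extent of the peak and the highest level at the top. Most boxes lie near the start, the *Xrcc1*, *Pcna* and *Gmnn* peaks lie downstream and those of *Rrm2* and *Mcm7* upstream, and *Msh6* and *Pold1* have no box.

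To compare genes with and without peaks in windows of equal length, RefSeq promoter sequences from 250 bases before to 50 after the start were searched, in which 47 of the 56 genes had an entry. *Gmnn*, *Mcm4*, *Gins1*, *Gins2*, *Pole*, *Prim2*, *Rfc2*, *Rad50* and *Fancd2* were not matched. CCAAT was present in 29 of 47 (61.7%) and in 42.3% of 17491 protein-coding genes. It was found in 16 of 18 genes with their own promoter peak (88.9%, against 77.0% of all protein-coding genes with one) and in 5 of 5 whose peak was assigned to a neighbour. These windows are not the sequence under the peaks. *Msh6* is counted with CCAAT although its peak held none, and *Cdc6* without it although its peak held a box. Of the 23 genes without a peak, 7 had CCAAT (30.4%), namely *Orc1*, *Mcm2*, *Gins3*, *Prim1*, *Rfc1*, *Rfc3* and *Rrm1*. The E2F motif was found in 15 of 47 (31.9%), against 2.31% of all protein-coding genes. Here genes with their own promoter peak and genes without a peak were closer, with 9 of 18 and 6 of 23 (26.1%). Genes whose peak was assigned to a neighbour had it in 0 of 5.

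A wider list of 80 other genes of replication and repair was examined in the same way. Promoter peaks were annotated to 28 of them (35.0%), and 37 (46.2%) had any peak centre within 1000 bp of a transcript start, compared with 39.3% and 50% of the 56 genes. The highest promoter peaks of these genes had a median of 65.2 normalised reads. *Top2a*, a topoisomerase of proliferating cells, had 233 ± 23.4, and the glycosylases *Ung* and *Ogg1* of base excision repair had 229 ± 13.9 and 227 ± 17.2. Among relatives of the listed genes, the polymerase delta subunits *Pold4* and *Pold2* had 149 ± 23 and 53.7 ± 9.71. *Gins4*, a further GINS subunit, had 49.0 ± 9.64.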

How the data were processed

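Reads were processed by the authors as follows, per their methods and the submitters' processing notes. Reads were trimmed with Trimmomatic 0.39, aligned to mm10 with STAR 2.7.9a and deduplicated with Picard 2.25.5. Peaks were called with MACS2 and unified over libraries, reads per peak were counted with featureCounts, and counts were normalised with DESeq2 1.30.0. The deposited values are therefore a score, namely counts scaled by a library size factor and rounded to whole numbers by the authors, without correction for peak length. This scaling would hide a change common to most peaks. Peaks were selected on the libraries whose levels are given.

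The genes and lists were chosen with earlier results of these data known. Every listed gene was named, and values were given for the highest promoter peak of each. Genes were matched by identifier in GENCODE M21, where 6141 of 6191 annotated peaks had identical gene bounds. The value of 1 read was estimated per library by likelihood from the spacing of the rounded values as 0.670, 1.48 and 1.02 normalised reads, and the estimator was tested on simulated data. The 3 reads of the floor were converted with it. Intervals and floors cover counting error only. Reads of single peaks were estimated by division with it and used only for the floor and the reads in peaks. As rounding leaves these estimates uncertain, no count model was used. Columns without a sample numbered 0. Alternatives were other promoter limits, a minimum mean of 10, the floor, values per kb, other windows and motifs, and leaving out each replicate. Matching by symbol, the highest peak per gene, protein-coding genes only and windows of equal length were chosen after seeing the data. Python 3.11.15, numpy 2.4.6, pandas 2.3.3 and pysam 0.24.0 were used.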

Additional observations from a re-analysis of the deposited data

How the results depend on the processing

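Each result was recomputed under the other settings, 27 in all over the counts, ratio, shares and spread. Of these, 23 stayed within 1.5 times the main count, the main interval or 1 SD, 4 moved, and 0 changed direction. Leaving out a single library cannot shift the mean ratio by 1 SD of the libraries, so the rule could not show a move there. The coefficient of variation was judged against the SD of its own values without each replicate. The count of 23 is therefore no measure of robustness to the choice of libraries. The log2 ratio of 1.29 between promoter peaks of these genes and others fell to 0.70 per kb of peak, to 0.91 with a promoter limit of 5000 bp and to 0.93 with peaks of a mean of at least 10. The share with CCAAT rose from 76.0% to 92.0% over the whole peak, where other promoter peaks also rose, to 78.9%. Without each replicate in turn the log2 ratio was 1.25 to 1.36 and the median coefficient of variation 10.3 to 17.9%. No single gene's mean moved by more than 1.22-fold. Genes with an annotated peak numbered 20 to 23 under stricter rules, against 24, and 28 had any peak centre within 1000 bp of a transcript start, whichever gene it was annotated to. Genes with a promoter peak numbered 19 to 24, against 22. No paired analysis was possible because values of the IgG libraries, which carry the same replicate numbers, were not analysed here, so enrichment over IgG at these peaks rests on the authors' peak calls. Replicate 2 had the fewest reads in peaks, and at the lowest peaks (*Pold1*, *Mcm7*, *Msh6*) it rested on few reads.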
